A study of Mus musculus with 18 samples.

Results

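The uninduced FF and Het lines of an inducible Ddx41 deletion series were compared, 6 of its 18 RNA-seq libraries. They are the 3 libraries labelled FF_EtOH (A, B and C) and the 3 labelled Het_EtOH (A, B and C), and the members are all genes on chromosomes 1 to 19 in these libraries. The FF cells carry loxP-flanked Ddx41 on both chromosomes (labelled flox/flox), and the Het cells carry 1 such allele beside a normal one (+/flox). Both also carry Rosa-CreERT, a Cre recombinase that 4-hydroxytamoxifen (4OHT) switches on, and both were made from lineage-depleted mouse marrow with a retrovirus that carries MLL-AF9. They grew in IL-3, stem cell factor and human IL-6, and received the solvent ethanol (1:1000) for 48 h and no 4OHT. The same lines given 1 µM 4OHT (FF_4OHT and Het_4OHT) and a line with no floxed allele in ethanol (WT_EtOH), 3 libraries each, are used beside them. How many lines or clones represent each genotype is not stated in the labels, and neither is whether A, B and C were grown separately. Genotype and line therefore cannot be told apart here, and the p-values measure only how far these libraries scatter, which may be technical.

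MLL-AF9 is a leukemia fusion protein that keeps myeloid progenitors dividing by holding on late HOXA genes and their cofactor MEIS1. Progenitors held in this way stop at a granulocyte and monocyte stage and can differ in how much granule, antigen presentation and metabolic gene expression they retain. Ddx41 encodes a DEAD-box RNA helicase, and with Cre inactive a floxed allele is normally still expressed.

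The library labelled FF_EtOH C stood apart from its group before any gene was described. Across 12409 tested genes its log2 CPM (counts divided by the scaled size of each library and set to the usual common total) correlated at 0.973 with the mean of FF A and B and at 0.995 with the mean of the WT ethanol libraries. FF A and B correlated at 0.986 with each other. These are correlations across genes, which are not independent replicates. Eya1, a transcriptional cofactor and phosphatase, was read at 65.8 and 55.2 CPM in FF A and B, had no count in FF_EtOH C, and had none in the 3 WT ethanol libraries. The library is therefore written below as the library labelled FF_EtOH C. Most counts of calls, and single genes whose call or size depended on it, are given with and without it. Shares by chromosome, near Ddx41 and among the H2 genes are given over all libraries alone. In the WT line after 4OHT, the library labelled WT_4OHT C had 54.6 CPM of Eya1 and the other 2 had none. Totals in the 6 libraries ran from 25888927 to 49277884 counts, and the deepest was Het A. No library pair within a group agreed within sampling noise, the lowest chi-square per gene being 31.2.

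The Het libraries also stood apart in genes that have near-identical copies. A copy means a transcript of another gene with at least 95% identity over at least 50% of the length. Gapdh, a glycolytic enzyme with many processed pseudogenes, was read at 4538, 2579 and 2514 CPM in FF and at 337, 542 and 328 CPM in Het. Rpl17, a ribosomal protein of the large subunit, was read at 1185, 785 and 993 CPM in FF and at 72.6, 45.0 and 63.2 CPM in Het. The groups did not overlap in either gene, and both had the same gap in the 4OHT libraries (Rpl17 at 1085, 1014 and 1163 CPM in FF and 116, 39.7 and 60 CPM in Het). In the opposite direction, the 91 processed pseudogenes of chromosomes 1 to 19 summed to between 119 and 128 CPM in FF, between 123 and 141 CPM in WT and between 367 and 485 CPM in Het. Rpl14-ps1, a processed pseudogene described below, had a Het CPM large enough to make up most of that excess. The sum therefore does not show a shift shared by these pseudogenes. The deposited table repeats its gene symbol column before the Het columns. Whether the Het reads were aligned or counted in another way is not given in the sources used here, and this cannot be told apart from the line. Genes with copies are therefore marked wherever they are named, and their direction is uncertain.

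Mir682, a microRNA annotated on chromosome 13 (GRCm38, plus strand), is a second such case, shown here by its sequence. It had no count in the 3 FF libraries and 28.8, 14.0 and 27.7 CPM in Het. Its annotated hairpin differs at 1 of 96 bases from a coding stretch of Rpl37a, a ribosomal protein gene on chromosome 1. In the sequences below (RefSeq, GRCm38.p6, and the GENCODE M21 transcript) capitals mark the seed, bases 2 to 8, of the mature microRNA and, in the other lines, the base that differs, C48T counted from 1 at the 5′ end of the hairpin.
mmu-miR-682 mature (chr13:75645119-75645139, plus strand): cUGCAGUCacagugaagucug
Mir682 hairpin (chr13:75645046-75645141, plus strand): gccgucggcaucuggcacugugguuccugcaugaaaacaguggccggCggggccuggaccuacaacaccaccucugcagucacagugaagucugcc
Rpl37a transcript, bases 182 to 277: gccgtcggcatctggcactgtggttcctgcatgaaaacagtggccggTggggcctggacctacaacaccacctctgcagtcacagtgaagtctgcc
The differing base lies outside the mature part, and the mature part is identical in both. Rpl14-ps1 is a processed pseudogene that is 98.9% identical to Rpl14. It was read at 0.0816, 0.0711 and 0.0759 CPM in FF and at 331, 231 and 272 CPM in Het, while Rpl14 was at 581, 823 and 899 CPM in FF and 676, 501 and 622 CPM in Het. Aldoart1, a retrogene copy of Aldoa at 92.6% identity, had no count in FF and 7.95, 12.4 and 11.7 CPM in Het. These 3 rank among the 12 largest differences toward Het but are not read as line markers.

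Over all 6 libraries 2086 of 12409 tested genes differed between FF and Het (edgeR quasi-likelihood F test in a fit to all 18 libraries, Benjamini-Hochberg adjusted p under 0.05), 16.8% of those tested. Of these, 964 (7.77%) were higher in FF and 1122 (9.04%) were higher in Het. The FF and Het libraries did not overlap in 2063 of the 2086, so a lack of overlap in a called gene adds little to its call. Without the library labelled FF_EtOH C the count was 1644 of 12597 (13.1%), with 800 (6.35%) higher in FF and 844 (6.70%) higher in Het. Without both FF_EtOH C and the library labelled WT_4OHT C, which enters the shared spread of the fit, it was 1977 (893 and 1084). The same call in the same direction was made in both fits for 1436 genes, 68.8% of the calls over all libraries and 87.3% of those without FF_EtOH C. The median log2 difference of all tested genes was 0.02. Scaling by plain library totals moved that median to -0.11 and the split to 634 higher in FF and 1496 higher in Het. Leaving out Het B lowered the count to 1286. Among genes without a near-identical copy 1781 of 11120 (16.0%) were called, 765 higher in FF and 1016 higher in Het. Among those with 1 to 3 copies 141 of 539 (26.2%) were called, and among those with 4 or more 56 of 131 (42.7%), with 114 and 43 of these higher in FF. Without FF_EtOH C the shares called were 12.3% without a copy, 21.4% with 1 to 3 and 38.1% with 4 or more.

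**Figure D1:**
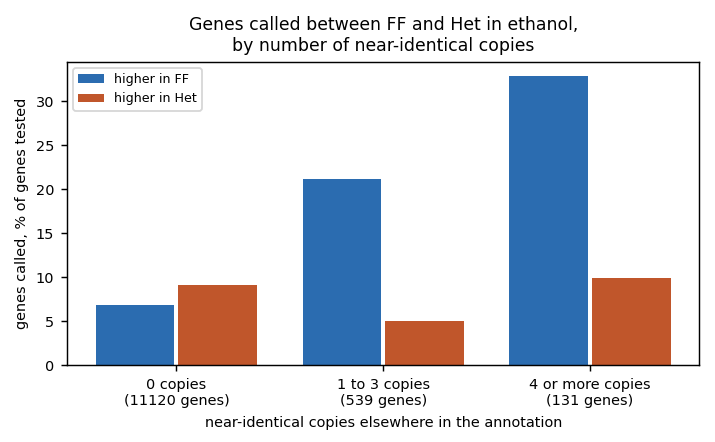
Share of tested genes called between FF and Het in ethanol (y axis, % of genes tested), by how many near-identical copies the gene has (x axis), with bars for genes higher in FF and higher in Het over all 6 libraries. Among genes with 4 or more copies 43 of 131 were higher in FF and 13 were higher in Het, while among genes with none 765 and 1016 of 11120 were.

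Calls were spread over the genome. Their share ran from 14.0% of tested genes on chromosome 13, which carries Ddx41, to 20.4% on chromosome 17. Within 5 Mb of Ddx41 on either side 13 of 67 tested genes were called (19.4%), near the 16.8% of all genes. On chromosome 17, 9 of 22 tested H2 genes of the histocompatibility complex were higher in Het and none was higher in FF by the edgeR test.

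The position of the WT line among these calls was taken as a description. The 1436 genes used for it had to be called with the library labelled FF_EtOH C in the FF group as well. That library lies near WT, so the choice favours genes in which WT lies on the FF side, and nothing is read from their share. For 1351 of the 1436 genes called in both fits (94.1%), the WT ethanol mean lay nearer FF A and B than Het on the log2(CPM + 0.5) scale, and for 85 it lay nearer Het. The library labelled FF_EtOH C was nearer WT than FF A and B in 1017 of the 1436. FF and WT had 0 genes called by edgeR (0%) over all their libraries, with 682 genes at an unadjusted p under 0.05. DESeq2 called 19 and limma voom 0. Without FF_EtOH C edgeR called 1, with 1633 of 12597 genes at an unadjusted p under 0.05. The library labelled WT_4OHT C stays in the shared spread of that fit, and few calls do not show that FF and WT are alike. Het and WT had 2954 genes called (23.8%). Both comparisons share the WT libraries, and the Het counts carry the copy pattern above.

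Ddx41 itself (chromosome 13, 55530410 to 55536658, minus strand, protein coding) was examined first among single genes. It was read at 112, 82.0 and 73.7 CPM in FF and at 71.3, 68.0 and 79.1 CPM in Het, and the groups overlapped. The log2 difference, FF minus Het, was 0.29 ± 0.16 (SE) with an edgeR adjusted p of 0.24, and 0.41 ± 0.16 with an adjusted p of 0.115 without FF_EtOH C. Eya1 (chromosome 1, 14168954 to 14310235, minus strand) was read at 65.8, 55.2 and 0 CPM in FF and at 81.8, 93.2 and 99.3 CPM in Het. Both lines therefore express it apart from the library labelled FF_EtOH C, and it was not called (log2 -1.18 ± 1.54, edgeR adjusted p = 0.672; without FF_EtOH C -0.60, 0.834). The library labelled WT_4OHT C stays in the spread of that fit, and without it as well the edgeR adjusted p was 0.151 at the same difference. By limma voom over all libraries the adjusted p was 0.089. FF A and B both lay below every Het library. No member of the EYA, sine oculis and DACH family of developmental regulators was called among 6 tested. Dach1, a corepressor in the same network, was read at 95.8, 94.8 and 166 CPM in FF and 107, 109 and 99.5 CPM in Het, and the groups overlapped.

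The clearest gene that was on in 1 line and off in the other was Ikzf2, which encodes Helios, a zinc finger transcription factor of the Ikaros family known from regulatory T cells. It lies on chromosome 1 (69531214 to 69687245, minus strand). It had 0 counts in the 3 FF libraries and 17.9, 33.7 and 39.6 CPM in Het, 3222 counts in all. Against a floor of 3 counts over the FF group this is at least 740-fold higher in Het (edgeR adjusted p = 6.79e-05, and 0.00034 without FF_EtOH C). The 3 WT ethanol libraries had none either. After 4OHT Ikzf2 was at 0.0793, 0 and 0 CPM in FF and at 9.32, 32.1 and 47.2 CPM in Het. Its Ikaros relative Ikzf1 had a log2 difference of -0.06 and was not called. Symbols with at most 3 counts over the FF group and at least 10 CPM in every Het library were Ikzf2, Plod2 and Mir682. In the opposite direction the same conditions held for 1 uncharacterised gene model.

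**Figure D2:**
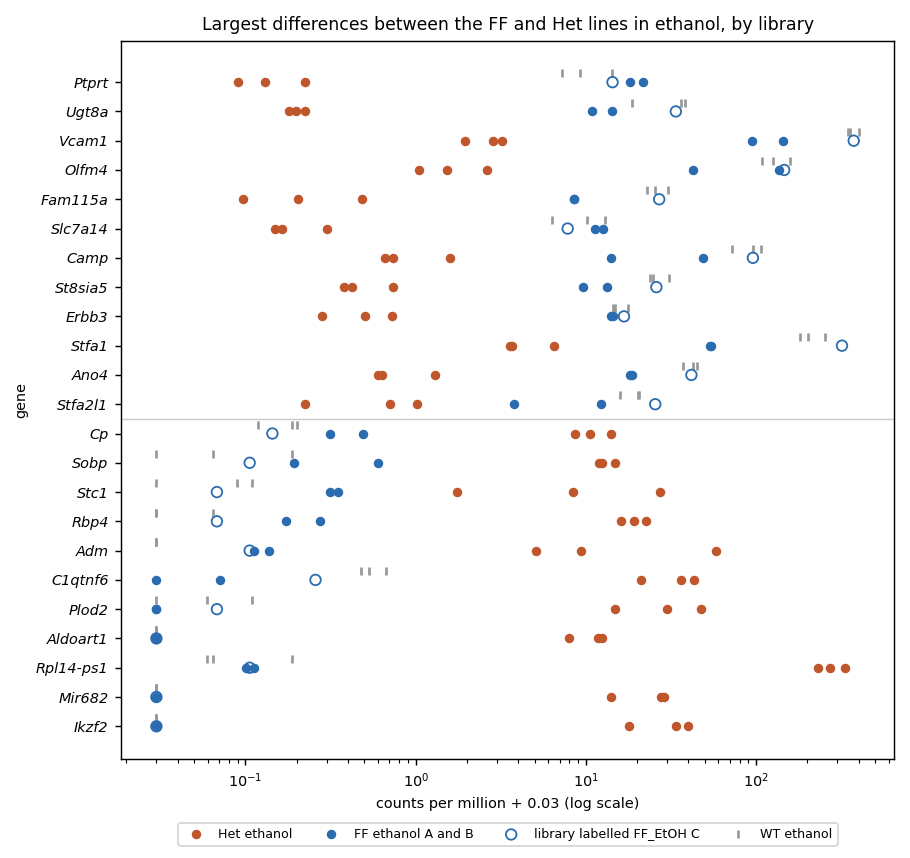
CPM + 0.03 on a log axis for 12 of the largest differences toward FF and 11 of those toward Het (y axis), with 1 point per library: filled blue for FF A and B, open blue for the library labelled FF_EtOH C, orange for Het and grey ticks for WT ethanol. The 23 genes were chosen so that no Het point overlaps an FF point. For Vcam1 and for Stfa1, which has a near-identical copy, the open point lies nearer the WT ticks than FF A and B do.

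Another 5 of the 12 largest differences toward Het follow. Plod2, a collagen lysyl hydroxylase (chromosome 9, 92542223 to 92608428), had a single count in the FF group and 14.7, 47.4 and 29.8 CPM in Het. The ratio was 2222 with an exact 95% counting interval of 398 to 87782 (edgeR adjusted p = 6.55e-07). C1qtnf6, a secreted protein with a C1q-like domain, was read at 0.0408, 0 and 0.228 CPM in FF and at 21.1, 36.2 and 43.0 CPM in Het (log2 -8.49 ± 0.66, edgeR adjusted p = 4.35e-07; 1.32e-06 without FF_EtOH C, where 1 count was left in FF). Both stood near 0 in FF, the library labelled FF_EtOH C included. Rbp4, the plasma retinol carrier, was at 0.245, 0.142 and 0.038 CPM in FF and 19.1, 16.0 and 22.4 CPM in Het (log2 -7.06 ± 0.60, edgeR adjusted p = 1.12e-06). Cp, the copper-binding ferroxidase ceruloplasmin, was at 0.285, 0.462 and 0.114 CPM in FF and 14.0, 10.6 and 8.63 CPM in Het (log2 -5.24 ± 0.69, edgeR adjusted p = 7.91e-05). Het libraries lay close together for these 2 genes. Sobp, a nuclear protein named for its binding to sine oculis proteins, followed at 0.163, 0.569 and 0.0759 CPM in FF and 12.4, 11.9 and 14.8 CPM in Het (log2 -5.55 ± 0.73, edgeR adjusted p = 7.01e-05).

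Adm and Stc1 were uneven within Het. Adm encodes the vasodilator peptide adrenomedullin and was read at 5.09, 58.4 and 9.30 CPM in Het A, B and C, against 0.0816, 0.107 and 0.0759 CPM in FF. Stc1, the secreted hormone stanniocalcin-1, was at 1.72, 27.1 and 8.39 CPM in Het and at 0.285, 0.32 and 0.038 CPM in FF. Het B was the highest library for both, and no Het library fell to the FF level. Their log2 differences were -8.03 ± 1.66 and -5.82 ± 1.41, with edgeR adjusted p of 0.0043 and 0.00965. Without Het B the log2 differences were -6.30 and -4.55, and with each of the 6 libraries left out in turn the adjusted p stayed at or below 0.049. By limma voom the adjusted p was 0.0463 for Adm and 0.0877 for Stc1.

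In the fit without the library labelled FF_EtOH C, 6 further genes led toward Het. H2-Ab1, a chain of MHC class II, was read at 1.75 and 2.06 CPM in FF A and B and 36.5, 69.9 and 31.8 CPM in Het (log2 -4.59 ± 1.15, edgeR adjusted p = 0.0161). Csn2, the milk protein beta-casein and a known target of STAT5 in breast, was at 3.55 and 2.74 CPM in FF A and B and 84.0, 80.0 and 55.8 CPM in Het (log2 -4.54 ± 1.26, edgeR adjusted p = 0.0275). Hnf4a, a nuclear receptor best known from liver, was at 1.06 and 1.03 CPM in FF A and B and 25.2, 17.9 and 23.4 CPM in Het (log2 -4.40 ± 0.27, edgeR adjusted p = 7.93e-08). The library labelled FF_EtOH C was lower than FF A and B in all 3, at 0.038, 0.0759 and 0.607 CPM. Pcdh7, a protocadherin, Adcy3, an adenylyl cyclase, and P4ha2, a collagen prolyl hydroxylase, had log2 differences of -4.58 ± 0.67, -4.36 ± 0.57 and -4.27 ± 1.13 there (edgeR adjusted p = 0.000361, 0.000126 and 0.0217).

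Most called genes of glucose breakdown were higher in Het. Of 20 tested glycolysis genes 11 were higher in Het and 2 higher in FF (65% called, against 16.8% of all genes), and the list's median log2 difference was -0.75 against 0.02 for all genes. Without FF_EtOH C 7 were higher in Het and 2 in FF, and without Het B 6 and 2. The list, Gapdh included, summed to 13694 to 18504 CPM in FF and 16153 to 21187 CPM in Het, so the groups overlapped in this sum. Among the 13 called genes Gapdh, Ldha, Eno1 and Pkm have near-identical copies, which leaves 8 higher in Het and 1 in FF. Aldoa, 1 of the 8, was not searched for copies. Aldoc, an aldolase isoform without a near-identical copy, was read at 48.3, 34 and 51.2 CPM in FF and 127, 197 and 96.9 CPM in Het (log2 -1.66 ± 0.30, edgeR adjusted p = 0.00124). Ldha, the lactate dehydrogenase subunit that ends anaerobic glycolysis, was at 1440, 1668 and 1779 CPM in FF and 3007, 3575 and 3128 CPM in Het (log2 -0.99 ± 0.18, edgeR adjusted p = 0.00112). It has near-identical copies, so its direction is uncertain. Every phosphofructokinase gene, the committed step, was higher in Het, with log2 differences of -0.74 ± 0.23 for Pfkl, -0.80 ± 0.15 for Pfkm and -0.86 ± 0.21 for Pfkp (edgeR adjusted p = 0.0367, 0.0016 and 0.0108). Of these, Pfkl was not called when any 1 library other than Het A was left out (adjusted p of 0.0784 without FF_EtOH C and 0.168 without Het B), and Pfkp was not called without Het B (0.056). The 2 genes higher in FF were Gapdh (log2 3.0 ± 0.26, edgeR adjusted p = 1.14e-06), which has 72 near-identical copies, and Pgam1 (log2 1.41 ± 0.15, edgeR adjusted p = 1e-05), for which none passed the definition. The glucose transporters Slc2a1 and Slc2a3 and the hexokinases Hk1, Hk2 and Hk3 were not called.

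**Figure D3:**
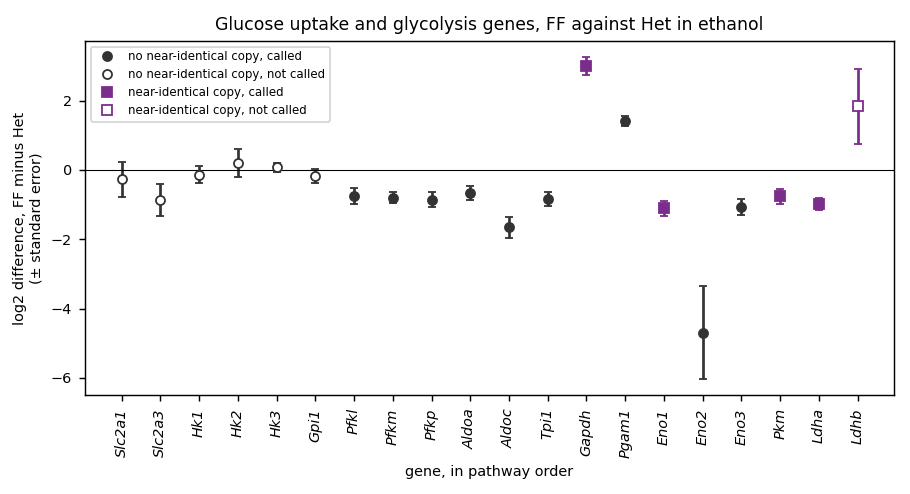
Log2 difference, FF minus Het in ethanol, ± standard error (y axis) for 20 genes of glucose uptake and glycolysis in pathway order (x axis), over 3 FF and 3 Het libraries; squares have a near-identical copy and open symbols were not called. The called genes lie below 0 apart from Gapdh and Pgam1, and Eno2, the lowest, rests on a single count in FF and was not called when any 1 library other than Het A was left out.

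A list of 29 genes known as targets of the hypoxia-inducible factor HIF was drawn up after the values of several of its members had been seen, so its count is a description. Of these, 12 were higher in Het and 1, the glycolytic regulator Pfkfb3 (log2 0.62), was higher in FF (44.8% called, against 16.8% of all genes). The list's median was -0.77. Without FF_EtOH C 11 were higher in Het and 1 in FF. Its summed level was 3811 to 4717 CPM in FF, 3530 to 3692 CPM in WT and 6046 to 9550 CPM in Het. The count and the sum include Ldha and Bnip3, both called toward Het, which have near-identical copies. Het B was again the highest library for most of these genes. Pdk1, a kinase that inhibits pyruvate dehydrogenase, was read at 123, 153 and 146 CPM in FF and 229, 395 and 270.0 CPM in Het (log2 -1.08 ± 0.24, edgeR adjusted p = 0.00524). Car9, a membrane carbonic anhydrase, was at 9.71, 8.74 and 10.1 CPM in FF and 20.2, 32.4 and 16.6 CPM in Het (log2 -1.28 ± 0.23, edgeR adjusted p = 0.00129). Groups did not overlap in these 2 genes, and without Het B the list still had 10 called toward Het. Vegfa and the prolyl hydroxylase Egln3, other targets of the factor, had log2 differences of -0.19 and -1.83 and were not called.

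The promoters of these genes were read for 1 motif. HIF is known to bind the core motif ACGTG or GCGTG, on either strand. In the 250 bases before the annotated start (RefSeq, GRCm38.p6) at least 1 such motif was found in 13 of the 17 glycolysis or HIF target genes called higher in Het that have a promoter entry (76.5%), out of 20 so called. It was found in 56.8% of the 9291 tested genes with an entry and in 38.6% of all 27025 entries. Since part of this set was chosen as HIF targets after values had been seen, that choice bears on its share, and nothing is read from the difference. Aldoa, Tpi1, Eno2 and Pkm have no match in the window. A match in so short a motif is a description and not a binding site. The windows of 3 genes without a near-identical copy are shown as examples that hold the motif, 1 hormone, 1 collagen enzyme and 1 glycolytic enzyme, with the motifs in capitals.
Adm (chr7:110627407-110627656, plus strand): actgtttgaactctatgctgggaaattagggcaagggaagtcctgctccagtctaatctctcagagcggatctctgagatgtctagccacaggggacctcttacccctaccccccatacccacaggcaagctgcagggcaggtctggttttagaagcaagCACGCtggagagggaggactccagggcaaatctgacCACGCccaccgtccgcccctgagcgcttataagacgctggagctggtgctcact
P4ha2 (chr11:54100674-54100923, plus strand): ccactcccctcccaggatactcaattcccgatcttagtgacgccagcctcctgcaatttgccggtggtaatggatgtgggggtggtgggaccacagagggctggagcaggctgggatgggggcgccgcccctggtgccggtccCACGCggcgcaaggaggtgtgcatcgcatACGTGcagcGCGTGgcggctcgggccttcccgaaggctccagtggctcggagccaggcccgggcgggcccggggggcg
Aldoc (chr11:78322823-78323072, plus strand): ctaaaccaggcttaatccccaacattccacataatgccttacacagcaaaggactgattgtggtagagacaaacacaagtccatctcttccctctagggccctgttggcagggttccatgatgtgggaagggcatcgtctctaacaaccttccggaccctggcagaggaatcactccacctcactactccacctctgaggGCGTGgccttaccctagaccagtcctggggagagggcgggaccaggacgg
P4ha2, whose CPM was 0.856, 0.995 and 0.266 in FF and 11.7, 29.8 and 12.3 in Het, holds 3 motifs. Adm holds 2 and Aldoc holds 1.

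Part of the antigen presentation genes were higher in Het. Among 16 tested class I genes and their regulators 9 were higher in Het and none in FF (56.2% called, against 16.8% of all genes). The other 7 were not called, and the median log2 difference of the 16 was -0.73. Their summed level was 1284 to 1616 CPM in FF, 1215 to 1353 CPM in WT and 1922 to 2250 CPM in Het. Tap1, a subunit of the peptide transporter, was read at 53.6, 56.9 and 43.5 CPM in FF and 76.1, 101 and 86.1 CPM in Het (log2 -0.77 ± 0.15, edgeR adjusted p = 0.0022). Nlrc5, the transactivator of class I genes, was at 4.57, 7.11 and 2.31 CPM in FF and 13.9, 19.2 and 17.8 CPM in Het (log2 -1.86 ± 0.42, edgeR adjusted p = 0.00558). H2-Q10, a secreted class I molecule known mainly from liver, had no count in FF and 2.09, 6.73 and 2.29 CPM in Het, at least 91.9-fold higher (edgeR adjusted p = 7.94e-05). FF and Het did not overlap in any of these 3 genes. The library labelled FF_EtOH C was the lowest FF library for Tap1 and Nlrc5, and without it 5 of 17 tested class I genes were higher in Het.

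Class II and dendritic cell genes were described next. Of 11 tested members 6 were higher in Het and 1 in FF, the chemokine receptor Xcr1 (63.6% called, against 16.8% of all genes). The median was -1.87 (-1.41 without FF_EtOH C, where 5 and 1 were called). H2-Aa, the partner chain of H2-Ab1, was read at 0, 0.213 and 0.038 CPM in FF and 2.26, 4.36 and 2.83 CPM in Het (log2 -5.11 ± 1.04, edgeR adjusted p = 0.00285). Flt3, the receptor of FLT3 ligand on progenitors and dendritic precursors, was at 0.122, 0.142 and 0.228 CPM in FF and 4.95, 6.04 and 6.54 CPM in Het (log2 -5.12 ± 1.04, edgeR adjusted p = 0.00289). Itgax, the integrin CD11c, was at 0.408, 0.284 and 0.19 CPM in FF and 2.42, 5.86 and 3.61 CPM in Het (log2 -3.74 ± 0.57, edgeR adjusted p = 0.000285). All were low in both lines. Xcr1 ran the other way, at 0.652, 0.675 and 0.531 CPM in FF with no count in Het, at least 23.7-fold higher (edgeR adjusted p = 4.08e-05). The dendritic markers Siglech, Ccr9 and Cd209a had no count in any of the 6 libraries, and the list summed to 136 to 139 CPM in FF and 201 to 265 CPM in Het. Fewer cells of a type and less RNA per cell cannot be told apart in these bulk libraries.

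Interferon-stimulated genes were mixed. Of 36 tested, 9 were higher in Het and 2 in FF (30.6% called, against 16.8% of all genes), with a median of -0.40. Without FF_EtOH C there were 7 and 1. Gbp3, an interferon-induced GTPase, was read at 8.69, 12.2 and 6.53 CPM in FF and 43.1, 37.2 and 44.7 CPM in Het (log2 -2.19 ± 0.25, edgeR adjusted p = 2.1e-05). Oas2, an activator of antiviral RNase L, was at 8.07, 8.46 and 8.65 CPM in FF and 1.95, 3.16 and 1.65 CPM in Het (log2 1.90 ± 0.30, edgeR adjusted p = 0.000366). The groups were apart in both genes, on opposite sides. Irf7 and Mx1, central members of the response, had log2 differences of -0.29 and -0.13 and were not called.

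Adhesion genes had 8 of 32 tested higher in Het and 1 higher in FF (28.1% called, against 16.8% of all genes), with a median of -0.17. The counts were 5 and 1 without FF_EtOH C, and 4 and 1 without Het B. Itgb7, the integrin beta 7 chain of gut homing, was read at 7.79, 9.95 and 9.11 CPM in FF and 83.0, 156 and 116 CPM in Het (log2 -3.73 ± 0.30, edgeR adjusted p = 7.12e-07). The 1 member higher in FF was Vcam1 (chromosome 3, 116109949 to 116129688, minus strand), the ligand of alpha 4 integrins. It was read at 143, 95 and 374 CPM in FF and 3.19, 1.92 and 2.83 CPM in Het (log2 6.25 ± 0.59, edgeR adjusted p = 2.77e-06). FF A and B lay between both extremes, since WT was at 357, 346 and 403 CPM, and without FF_EtOH C the log2 difference was 5.47 ± 0.47 (adjusted p = 2.59e-06).

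Of the 12 largest differences toward FF, 7 are given here. Ptprt, a receptor-type tyrosine phosphatase, was read at 18, 21.6 and 14.3 CPM in FF and 0.194, 0.0601 and 0.101 CPM in Het (log2 7.10 ± 0.60, edgeR adjusted p = 1.06e-06). Erbb3, a receptor for neuregulins, was at 14.0, 14.3 and 16.7 CPM in FF and 0.252, 0.692 and 0.472 CPM in Het (log2 5.02 ± 0.60, edgeR adjusted p = 3.22e-05). Slc7a14, a member of the cationic amino acid transporter family, was at 12.6, 11.3 and 7.78 CPM in FF and 0.271, 0.12 and 0.135 CPM in Het (log2 5.80 ± 0.41, edgeR adjusted p = 2.06e-07). In these 3 the library labelled FF_EtOH C lay with or near FF A and B. Ugt8a, the enzyme that makes galactosylceramide, St8sia5, a sialyltransferase of gangliosides, Ano4, a member of the anoctamin family, and Fam115a had log2 differences of 6.79 ± 0.83, 5.10 ± 0.47, 4.95 ± 0.47 and 5.97 ± 0.74 (edgeR adjusted p between 2.45e-06 and 4.12e-05). FF_EtOH C was the highest FF library for these 4. Without it their log2 differences were 6.14, 4.59, 4.44 and 5.19, and all 4 were called.

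The second step, without FF_EtOH C, added 6 genes toward FF. Nlrp1a, an inflammasome sensor that varies between mouse strains, was read at 29.7 and 25.3 CPM in FF A and B, 10.6 CPM in FF_EtOH C and 1.55, 2.31 and 1.18 CPM in Het (log2 4.03 ± 0.41, edgeR adjusted p = 1.23e-05). Egr1, an immediate early transcription factor, was at 100 and 13.9 CPM in FF A and B, 0.152 CPM in FF_EtOH C and 0.426, 0.541 and 2.86 CPM in Het (log2 5.54 ± 1.71, adjusted p = 0.0456). It was not called over all 6 libraries (adjusted p = 0.0922), and FF A and B themselves are far apart. Dennd5b, an activator of Rab GTPases, and Cpne8, a calcium-binding copine, had log2 differences of 5.08 ± 0.46 and 3.66 ± 0.37 in that fit (edgeR adjusted p = 4.94e-06 and 1.08e-05). Nanp, a phosphatase of sialic acid synthesis, and Rpl17 were also named (4.32 ± 0.67 and 4.03 ± 0.33), and both have near-identical copies.

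Granule genes of neutrophil precursors were mostly higher in FF where called. Of 23 tested, 11 were higher in FF and 1 in Het (52.2% called, against 16.8% of all genes), with a median log2 difference of 0.76. Without FF_EtOH C 8 of 24 were higher in FF and 0 in Het, with a median of 0.62. The list summed to 9623 to 14317 CPM in FF and 7553 to 9984 CPM in Het, so the groups overlapped in this sum. Mpo, the myeloperoxidase of primary granules, was read at 1594, 601 and 2181 CPM in FF and 136, 92.4 and 123 CPM in Het (log2 3.64 ± 0.64, edgeR adjusted p = 0.000952). Camp, the antimicrobial cathelicidin of secondary granules, was at 48.5, 14.0 and 95.6 CPM in FF and 1.57, 0.631 and 0.708 CPM in Het (log2 5.70 ± 0.77, edgeR adjusted p = 9.2e-05; 4.94 ± 0.70 without FF_EtOH C, 0.000295). Olfm4, a glycoprotein of a subset of neutrophils, was at 136, 42.4 and 146 CPM in FF and 1.49, 2.59 and 1.01 CPM in Het (log2 5.99 ± 0.70, edgeR adjusted p = 2.41e-05). FF B was the lowest FF library in each, and still above every Het library. Ngp, another secondary granule protein, was at 490.0, 153 and 249 CPM in FF and 74.9, 80.0 and 47.4 CPM in Het (log2 2.14 ± 0.40, edgeR adjusted p = 0.00142). S100a8 and S100a9, the calprotectin subunits, had log2 differences of 2.55 ± 0.59 and 2.62 ± 0.56 (edgeR adjusted p = 0.00711 and 0.00403). The primary granule proteases were not called, with Elane at 4488, 2989 and 4157 CPM in FF and 4178, 3167 and 2830 CPM in Het, and log2 differences of 0.64 for Prtn3 and -0.12 for Ctsg. The 1 member higher in Het was Prg2 of eosinophils, at no more than 4.87 CPM, and it was not called when any 1 library other than Het A was left out (adjusted p = 0.109 without FF_EtOH C). The stefins Stfa1 and Stfa2l1, protease inhibitors of neutrophils, were also higher in FF (log2 4.97 ± 0.81 and 4.53 ± 0.82, edgeR adjusted p = 0.000553 and 0.00114), but each has a near-identical copy. Without FF_EtOH C their differences were 3.56 and 3.74 (0.00117 and 0.00539). In a fit of the 6 libraries alone with a replicate block neither was called (0.0996 and 0.0557).

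Among 35 tested myeloid transcription factors 9 were higher in FF and 2 in Het (31.4% called, against 16.8% of all genes), with a median of 0.38. Without FF_EtOH C there were 7 and 1, without FF A 2 and 2, without Het A 2 and 2, and without Het B or Het C 4 and 2. Spi1, which encodes PU.1, was read at 355, 207 and 266 CPM in FF and 143, 132 and 144 CPM in Het (log2 0.98 ± 0.19, edgeR adjusted p = 0.00164). Stat5a, which relays IL-3 signals, had a log2 difference of 0.54 ± 0.12 (edgeR adjusted p = 0.0038). Fos, an immediate early factor, was at 9.79, 5.94 and 2.50 CPM in FF and 0.484, 0.692 and 1.08 CPM in Het (log2 3.04 ± 0.82, edgeR adjusted p = 0.0184), and it was not called without FF A, Het A or Het B. The regulator Cebpe of late granule genes was higher in FF and Cebpa lower (log2 1.10 and -0.75, edgeR adjusted p = 0.0202 and 0.0253), and neither was called without FF_EtOH C (0.0973 and 0.1) or without Het A (0.0523 and 0.112). Irf8, Gfi1 and Klf4 were not called.

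**Figure D4:**
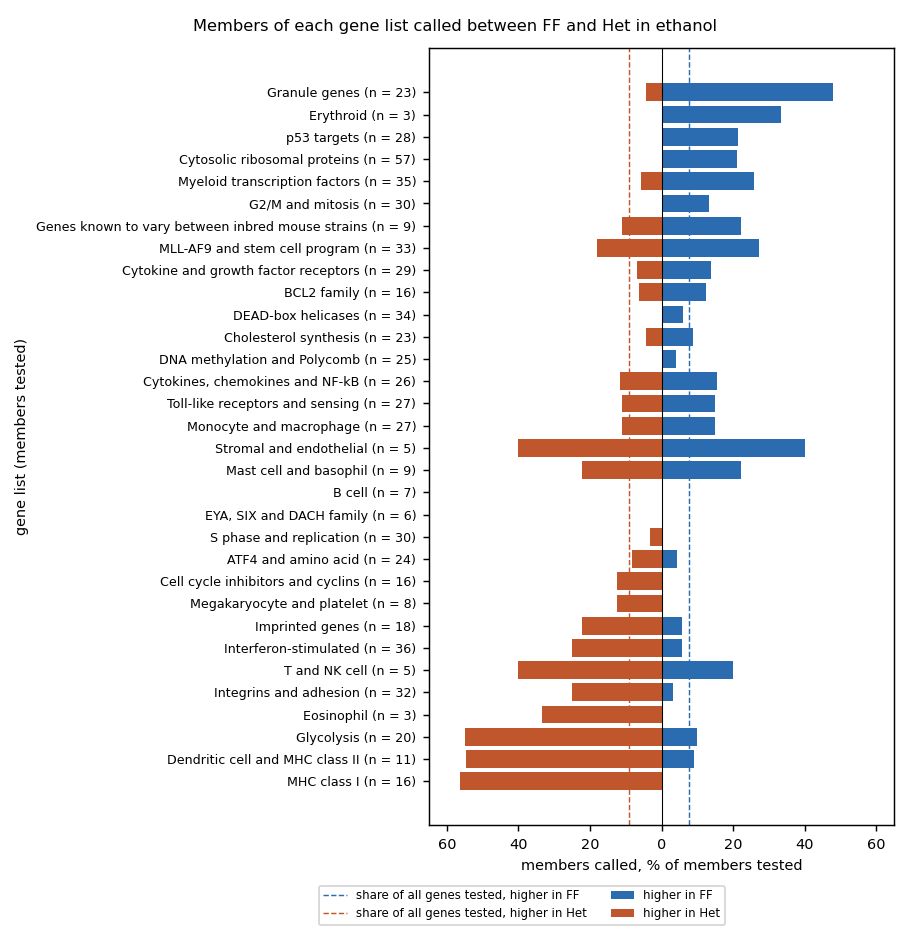
Members called as a share of members tested (x axis, %) for 32 gene lists (y axis, with the number tested), to the right where higher in FF and to the left where higher in Het, over all 6 libraries; dashed lines mark the 7.77% and 9.04% of all tested genes called in each direction. Granule genes extend farthest to the right and MHC class I, class II and glycolysis genes farthest to the left.

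The MLL-AF9 program split in both directions, with 9 of 33 tested genes higher in FF and 6 higher in Het (45.5% called, against 16.8% of all genes). The median was 0.33. Without FF_EtOH C the counts were 8 and 4, and without FF A they were 5 and 4. Among the 9 higher in FF were Hoxa3, Hoxa5, Hoxa7, Hoxa9, Hoxa10 and Hoxa11, transcription factors of the HOXA cluster. Hoxa2, Hoxa4 and Hoxa6 were not called, and Hoxa13 was too low to test. Hoxa9 was read at 489, 310.0 and 330.0 CPM in FF and 180.0, 169 and 165 CPM in Het (log2 1.13 ± 0.22, edgeR adjusted p = 0.00204). Hoxa10 was at 324, 335 and 327 CPM in FF and 203, 181 and 166 CPM in Het (log2 0.84 ± 0.09, edgeR adjusted p = 8.26e-06). Hoxa11 had a log2 difference of 0.57 (edgeR adjusted p = 0.00122). Hoxa3 and Hoxa7 were close to the threshold (0.0378 and 0.0471), and Hoxa3 was not called without FF_EtOH C (0.132). Hoxa5 was at 45.7, 35.0 and 44.9 CPM in FF and 21.9, 20.5 and 24.7 CPM in Het (log2 0.90 ± 0.14, edgeR adjusted p = 0.000346). FF and Het were apart in Hoxa5, Hoxa9 and Hoxa10. Meis1, the HOX cofactor, was at 141, 90.9 and 135 CPM in FF and 91.6, 112 and 111 CPM in Het and was not called. Pbx3, another HOX cofactor, was higher in Het, at 15.2, 11.1 and 11.3 CPM in FF and 53.6, 48.8 and 57.3 CPM in Het (log2 -2.09 ± 0.29, edgeR adjusted p = 0.000133). Mef2c, a factor known from MLL-rearranged leukemia, was at 51.5, 66.7 and 69.4 CPM in FF and 103, 138 and 147 CPM in Het (log2 -1.04 ± 0.27, edgeR adjusted p = 0.0131; not called without FF A, 0.0655, or Het C, 0.0508). The RNA-binding protein gene Igf2bp3, on the same side as the HOXA genes, had a log2 difference of 0.99 ± 0.17 (edgeR adjusted p = 0.00067).

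Receptors for the cytokines in the medium were given next. Il6ra, which binds the IL-6 supplied, was read at 27.5, 29.6 and 35.6 CPM in FF and 17.1, 18.3 and 14.7 CPM in Het (log2 0.89 ± 0.18, edgeR adjusted p = 0.00274). Csf3r, the G-CSF receptor, was at 84.7, 44.2 and 70.8 CPM in FF and 27.0, 25.0 and 24.6 CPM in Het (log2 1.38 ± 0.25, edgeR adjusted p = 0.00109). The groups did not overlap in these 2 genes. Kit and Il3ra, receptors of stem cell factor and IL-3, had log2 differences of 0.48 and -0.71 and were not called. Csf2rb2, a beta chain used by IL-3 alone, had a log2 difference of -0.55 ± 0.15 (edgeR adjusted p = 0.0177), has a near-identical copy in Csf2rb and was not called without FF_EtOH C (0.0564), FF B, Het B or Het C. Csf2ra, the GM-CSF receptor, had 0.95 ± 0.24 (0.0111; not called without FF A or Het C). In all 4 of 29 receptors were higher in FF and 2 in Het (20.7% called, near the 16.8% of all genes), with a median of -0.23. The split was 4 and 1 without FF_EtOH C, 2 and 4 without FF A, 4 and 0 without Het B, 2 and 2 without Het C, and 4 and 9 with scaling by library totals.

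Monocyte genes had 4 of 27 higher in FF and 3 in Het (25.9% called, against 16.8% of all genes). The counts were 1 and 2 without FF_EtOH C, 0 and 3 without Het A, 2 and 1 without Het B, and 1 and 3 without Het C. Lgals3, the lectin galectin-3, was read at 40.9, 51.3 and 49.7 CPM in FF and 206, 292 and 149 CPM in Het (log2 -2.19 ± 0.37, edgeR adjusted p = 0.00067). F13a1, the A subunit of factor XIII, was at 227, 282 and 74.7 CPM in FF and 724, 1333 and 606 CPM in Het (log2 -2.19 ± 0.58, edgeR adjusted p = 0.0156; not called without FF_EtOH C, 0.0578, or Het B, 0.0774). Het B was the highest library in both, as it was for the scavenger receptor Cd36. Fcgr1, the high affinity IgG receptor, had a log2 difference of 1.72 ± 0.48 (0.0209; 0.141 without FF_EtOH C, and not called without Het A or Het B). Cytokine and NF-kB genes had 4 of 26 higher in FF and 3 in Het (26.9% called). The counts were 3 and 2 without FF_EtOH C, and none was higher in FF without Het B or Het C or with scaling by library totals. Spp1, the secreted phosphoprotein osteopontin, was at 60.4, 82.4 and 28.3 CPM in FF and 306, 588 and 194 CPM in Het (log2 -2.67 ± 0.49, edgeR adjusted p = 0.00138). Ccl7, a monocyte chemokine, reached at most 1.74 CPM. Innate sensors had 4 of 27 higher in FF and 3 in Het (25.9% called), and 3 and 1 without FF_EtOH C. Among them were Nlrc4 (log2 0.87 ± 0.16) and Tlr1 (1.47 ± 0.29) toward FF and Naip1 (-3.68 ± 0.58) toward Het (edgeR adjusted p = 0.00114, 0.00233 and 0.000366). Naip1 has near-identical copies.

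Markers of other lineages were examined as lists, beside 16.8% called among all genes tested. Among T and NK cell genes Cd3e, Cd3g, Ncr1 and Gzma had no count in the 6 libraries, and of 5 tested 1 was higher in FF and 2 in Het (1 and 1 without FF_EtOH C). Thy1, a surface glycoprotein of T cells and of some progenitors and stroma, was read at 22.6, 15.4 and 4.86 CPM in FF and 150.0, 375 and 216 CPM in Het (log2 -4.11 ± 0.66, edgeR adjusted p = 0.000412), and the list's sum was 24.4 to 46.6 CPM in FF and 165 to 391 CPM in Het. B cell genes had 0 of 7 called by edgeR and summed to 3.09 to 8.01 CPM in FF and 3.68 to 8.18 CPM in Het, with Ebf1, Vpreb2, Ms4a1, Rag1 and Dntt without a count. Mast cell and basophil genes had 2 of 9 called in each direction, Hpgds (log2 2.84 ± 0.49) and Hdc (0.94 ± 0.29) toward FF and Mcpt8 (-1.19 ± 0.29) toward Het among them (edgeR adjusted p = 0.000892, 0.0371 and 0.0112). Without FF_EtOH C neither Hdc (0.123) nor Mcpt8 (0.0503) was called, and Mcpt1, Tpsab1, Prss34, Mrgprb2 and Cd200r3 had no count. Erythroid genes had 1 of 3 called, Car2 at 3.23 CPM or less, which was not called without FF_EtOH C (0.0563). The list summed to 557 to 967 CPM in FF and 600.0 to 791 CPM in Het, nearly all of it Tfrc, the transferrin receptor of dividing cells, and 7 members had no count, among them the adult globins Hba-a1, Hba-a2, Hbb-bt and Hbb-bs. Megakaryocyte genes had 1 of 8 higher in Het, with sums of 137 to 184 CPM in FF and 116 to 148 CPM in Het, most of it Fli1, a transcription factor also expressed in myeloid cells, and eosinophil genes 1 of 3, Prg2. Stromal and endothelial genes had 2 of 5 called in each direction (2 and 1 without FF_EtOH C) and summed to 314 to 443 CPM in FF and 397 to 449 CPM in Het, most of it Pecam1 and Vcam1, with Pdgfra, Tek, Emcn, Lum and Dcn without a count. Pdgfrb, the PDGF receptor beta, was at 1.43, 1.24 and 0 CPM in FF and 13.6, 16.1 and 18.7 CPM in Het (log2 -4.18 ± 0.87, edgeR adjusted p = 0.00332; -3.59 without FF_EtOH C, 0.0049). The part of any other cell type in these differences was not tested.

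Proliferation genes differed little. By edgeR 13.3% of 30 tested G2 and mitosis genes were called, against 16.8% of all genes and 7.77% called higher in FF. Of these 30, 4 were higher in FF and none in Het, with a median of 0.19. There were 2 without FF_EtOH C, and 1 with scaling by library totals, without Het B or without Het C. Of 30 S phase genes 1 was called, the helicase subunit Mcm6, at 521, 573 and 573 CPM in FF and 692, 641 and 681 CPM in Het (log2 -0.27 ± 0.08, edgeR adjusted p = 0.0323), which was not called when any 1 library other than Het B was left out (0.0563 without FF_EtOH C). Ccnd2, a D-type cyclin of G1, was far larger, at 30, 37.1 and 39.9 CPM in FF and 131, 155 and 148 CPM in Het (log2 -2.02 ± 0.27, edgeR adjusted p = 7.94e-05). Cdkn2a, the locus of p16 and p19Arf, was at 1.15 CPM or less and was higher in Het (log2 -1.50 ± 0.48, edgeR adjusted p = 0.0402; -2.14 without FF_EtOH C, 0.0149), but was not called when any 1 of FF A, FF B, Het A, Het B or Het C was left out. In the BCL2 family 2 of 16 were higher in FF and 1 in Het (18.8% called, near the 16.8% of all genes), and 1 and 1 without FF_EtOH C. The 1 higher in Het was Bcl2 itself, a survival factor, at 5.55, 7.71 and 6.53 CPM in FF and 12.9, 19.2 and 20.8 CPM in Het (log2 -1.42 ± 0.35, edgeR adjusted p = 0.011, and 0.0529 without FF A).

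By edgeR 21.4% of 28 tested targets of p53 were called, against 16.8% of all genes and 7.77% called higher in FF. Of these 28, 6 were higher in FF and none in Het, with a median of 0.25. The counts were 5 and 0 without FF_EtOH C and 3 and 1 without Het A. Aen, an apoptosis-enhancing nuclease, was read at 76.2, 76.7 and 72.0 CPM in FF and 53, 36.8 and 44.2 CPM in Het (log2 0.75 ± 0.14, edgeR adjusted p = 0.00145). Ccng1, cyclin G1, was at 234, 258 and 260.0 CPM in FF and 150.0, 167 and 163 CPM in Het (log2 0.65 ± 0.16, edgeR adjusted p = 0.0119; 0.0502 without Het A). Cdkn1a and Mdm2, the targets most often used as readouts of p53, had log2 differences of -0.22 and 0.11 and were not called.

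By edgeR 21.1% of 57 tested cytosolic ribosomal protein genes were called, against 16.8% of all genes and 7.77% called higher in FF. Of these 57, 12 were higher in FF and none in Het, with a median of 0.35. There were 7 without FF_EtOH C (median 0.20) and 6 without Het B (0.19), and 10 of the 12 have near-identical copies, as do 47 of the 57. Rpl15 was read at 723, 855 and 949 CPM in FF and 211, 164 and 223 CPM in Het (log2 2.08 ± 0.17, edgeR adjusted p = 7.24e-07), and it has 14 such copies. Cholesterol synthesis had 2 of 23 higher in FF and 1 in Het, and 2 and 0 without FF_EtOH C. Its share called over all libraries was below the 16.8% of all genes. Idi1, the isopentenyl diphosphate isomerase, was at 278, 338 and 346 CPM in FF and 65.7, 60.1 and 63.4 CPM in Het (log2 2.35 ± 0.22, edgeR adjusted p = 2.77e-06). The list's median was -0.01. ATF4 and amino acid genes had 1 of 24 higher in FF and 2 in Het (12.5% called, also below the 16.8%). Without FF_EtOH C the counts were 1 and 4.

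Among 18 tested imprinted genes 4 were higher in Het and 1 in FF (27.8% called, against 16.8% of all genes), and without FF_EtOH C 3 and 1. Nespas, an antisense RNA of the Gnas locus, had no count in FF and 1.49, 1.11 and 1.99 CPM in Het, at least 39.8-fold higher (edgeR adjusted p = 2.1e-05), and whether the counting used strand is not given. Peg12 was at 0, 0.0355 and 0.228 CPM in FF and 1.53, 1.56 and 2.80 CPM in Het (log2 -4.41 ± 0.90, edgeR adjusted p = 0.00304; 0.00271 without FF_EtOH C, where 1 count was left in FF). Sgce, a sarcoglycan gene next to Peg10, was at 0.897, 0.64 and 0 CPM in FF and 2.75, 7.70 and 5.09 CPM in Het (log2 -3.33 ± 0.70, edgeR adjusted p = 0.00361; -2.75 without FF_EtOH C, 0.00287), and Peg10, whose groups overlapped, had -2.44 (0.0456; 0.132 without FF_EtOH C). Levels were low in both lines, and 11 imprinted genes had no count in the 6 libraries. Peg13, a noncoding RNA, was the 1 higher in FF (log2 0.57 ± 0.13, edgeR adjusted p = 0.0052). DNA methylation and Polycomb genes had 1 of 25 called (4.00%), Dnmt1, whose call was lost under 14 of 18 alternatives. Genes known to vary between inbred strains had 2 of 9 higher in FF and 1 in Het (33.3% called), also without FF_EtOH C. Of these Wdfy1, an adaptor of Toll-like receptor signalling, was at 57.5, 57.9 and 35.7 CPM in FF and 13.5, 13.9 and 12.5 CPM in Het (log2 1.92 ± 0.21, edgeR adjusted p = 1.25e-05). Of 34 DEAD-box helicase genes 2 were higher in FF (5.88%, below the 16.8% of all genes), Ddx31 and Ddx18 (both log2 0.33). Ddx18 has near-identical copies, and neither gene was called without FF_EtOH C.

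The same lines were compared in their 4OHT libraries, in which Ddx41 deletion differs between the lines as well. The group means compared in ethanol do not come from these libraries. Both comparisons share the spread of the fit to all 18 libraries, so their calls are not independent. There 3475 of 12409 genes (28.0%) were called, 1441 (11.6%) higher in FF and 2034 (16.4%) higher in Het. Of the 2086 ethanol calls, 1937 had the same sign after 4OHT, and 1335 were called in the same direction, which is 64.0% of the ethanol calls and 38.4% of the 4OHT calls. In the opposite direction 24 were called. Of the 1436 genes called in both ethanol fits 1051 (73.2%) were called in the same direction after 4OHT. Ptprt had log2 differences of 7.10 in ethanol and 6.47 in 4OHT, Vcam1 of 6.25 and 6.03, Rbp4 of -7.06 and -7.03, and Hnf4a of -4.62 and -5.20. For Csn2 and Cp the 4OHT difference was smaller (-2.03 and -1.96). Glycolysis genes had 2 of 20 higher in FF and 10 in Het after 4OHT, granule genes 11 and 0 of 23, and MHC class I genes 0 and 8 of 16. Mitosis genes, by contrast, had 0 and 16 of 30, and p53 targets 14 and 1 of 28, against 4 and 0 and 6 and 0 in ethanol; the differences of these counts between treatments were not tested.

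**Figure D5:**
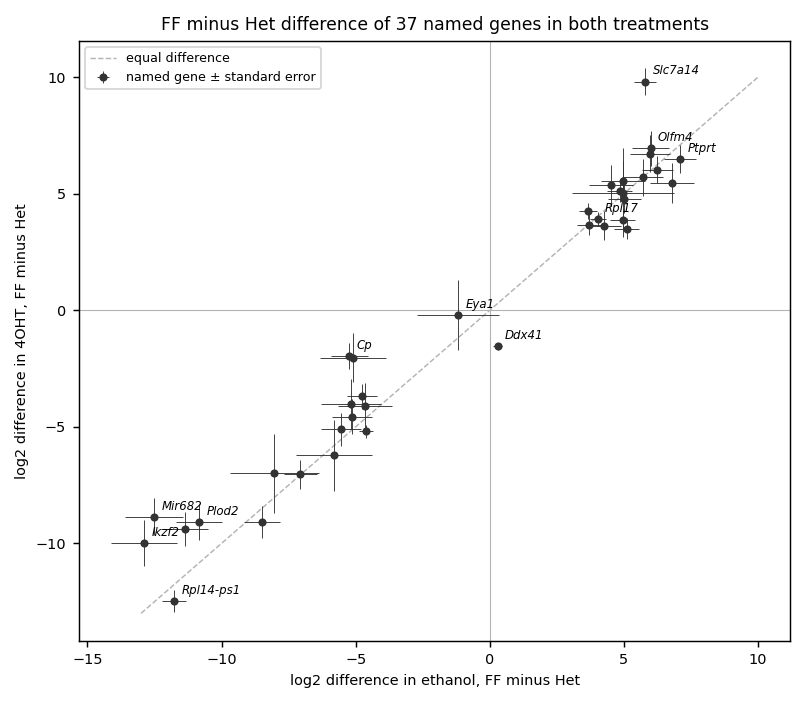
Log2 difference, FF minus Het, in ethanol (x axis) and in 4OHT (y axis) for 37 named genes, each with its standard error in both directions, and a dashed line where both are equal. The libraries on the axes do not overlap, but the standard errors come from the same fit. Ddx41 is at 0.29 in ethanol and -1.55 in 4OHT, and the genes named for a large difference lie on the same side of 0 in both.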

How the data were processed

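RNA abundance was measured in 18 libraries. The authors deposited 1 table of raw read counts per gene symbol, not normalized. The submitters' processing notes name HISAT2 2.0.5, featureCounts 1.5.2 and the mm10 build, beside CASAVA 1.4, FastQC 0.11.7 and the Subread package. Neither the annotation, the strand setting nor the treatment of multiply mapping reads is given in the sources used here. Of 24062 symbols 22708 matched 1 GENCODE M21 gene (GRCm38), and 1227 others took a chromosome from RefSeq GRCm38.p6. Genes on X and Y were tested but are not described.

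Counts were fitted with edgeR 4.0.16 in R 4.3.3 (TMM, filterByExpr with a minimum count of 10, robust quasi-likelihood F test, 1 mean per labelled group over all 18 libraries), and p-values were adjusted over all 12859 genes tested. CPM are TMM-scaled. In the 6 libraries 1 count is worth 0.0193 to 0.0408 CPM. For a group without a count the floor was 3 counts, taken over the whole group, and bounds and intervals cover counting error only. No list median moved when the 6 tested members without a count in 1 group were put at their bound. The script was tested on simulated data.

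The rule names Ddx41, Eya1, the 12 largest log2 differences in each direction (called with and without FF_EtOH C, at least 10 CPM in the higher group, no overlap, gene models passed over), 6 more in each direction without FF_EtOH C, and up to 4 called members of each of 32 lists, or 2 of the most abundant where none was called; other members are named after their values were seen. Some genes that the rule names are not reported here. Members and lists were chosen with earlier results of these data known. Near-identical copies were searched with blastn among GENCODE M21 transcripts. Alternatives were DESeq2 1.42.0 and its size factors, library-size scaling, other filters and thresholds, limma 3.58.1 voom, smaller fits, a replicate block and each library left out.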

Additional observations from a re-analysis of the deposited data

Results flagged for a closer look

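For 4 named genes the FF minus Het difference itself differed between 4OHT and ethanol, by the interaction contrast of the edgeR fit. For Ddx41 it was 0.29 in ethanol and -1.55 in 4OHT, and the change of -1.84 ± 0.23 (log2, SE) had an adjusted p of 0.00214; FF fell to 14.6, 16.5 and 17.7 CPM after 4OHT and Het was at 58.4, 43.0 and 41.3 CPM. For Slc7a14 the change was 4.01 ± 0.88 (adjusted p = 0.0236), with Het at 0, 0.0277 and 0 CPM after 4OHT, so that its size depends on counts near 0. For the IL-3 receptor chain Csf2rb2 the change was 1.29 ± 0.21 (adjusted p = 0.00571), from -0.55 to 0.75, with FF at 107, 121 and 139 CPM after 4OHT. For the mitotic kinesin Kif20a the change was -0.88 ± 0.13 (adjusted p = 0.00321), from 0.29 to -0.60.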

How the results depend on the processing

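Against 2086 calls (964 higher in FF, 1122 higher in Het) keeping genes with 5 CPM or more in 3 libraries gave 1351 (631 and 720), an adjusted p of 0.01 gave 1044 (492 and 552) and a 2-fold limit gave 1205 (406 and 799). Library-size scaling gave 634 higher in FF. With a replicate block 2078 were called, and 3464 in 4OHT; in the 6 libraries alone with the block 1459 were called, 618 of them higher in FF. Same-letter deviations from the group mean correlated at 0.01, 0.04 and -0.08, and 1 of 6 libraries correlated best with its own letter. The FF mean includes the library labelled FF_EtOH C, so these values cannot decide whether the letters pair the libraries. Leaving out 1 library gave 1286 to 1835 calls, 565 to 927 higher in FF and 721 to 958 higher in Het; the lowest was without Het B. In 4OHT it gave 2496 to 3796, with 1040 to 1653 higher in FF and 1456 to 2143 higher in Het. DESeq2 called 2499. A fit without genes that have near-identical copies, chosen after seeing the data, called 1903. Of 119 named genes called, 77 were called in the same direction under every alternative set at the start that tested them, and none of the 119 reversed. Egr1 was called without FF_EtOH C and by DESeq2. The cause of these shifts was not tested. With 3 libraries per group, genes near 1 count per library cannot be ranked, and a missing call does not show equality.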
